A study of Mus musculus with 6 samples.

Results

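The genes described here are the 10 members of the insulin-like growth factor (IGF) system named Igf1, Igf2, Igf1r, Igf2r and Igfbp2 to Igfbp7. They were picked by gene name from the 34745 genes listed for cultured lung mesenchymal stromal cells (LMSCs). In this system the secreted ligands IGF-1 and IGF-2 bind the tyrosine kinase receptor IGF1R, which signals through insulin receptor substrates to the PI3K-AKT and MAPK pathways. The receptor encoded by Igf2r carries IGF-2 to lysosomes and has no kinase of its own. IGF binding proteins are secreted carriers that hold the ligands outside the cell, lengthen their life and limit or deliver them to the receptor, and proteases release the ligands again. Stromal cells of the lung are a known source of IGF-1 and of several binding proteins.

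RNA-seq was performed on LMSCs of MMTV-PyMT mice, in which the mouse mammary tumor virus promoter drives the polyoma middle T oncogene in mammary epithelium, so that mammary tumors form and spread to the lung. The question put to these libraries was how LMSCs differ between tumor stages. There were 2 libraries of A-LMSCs (adenoma stage, mice labeled 6 to 7 weeks old), 2 of PM-LMSCs (pre-metastatic stage, 9 to 10 weeks) and 2 of M-LMSCs (metastatic stage, 13 to 14 weeks), and the further library of each stage that the study used was not analysed here. The study's methods give somewhat older mice for the A and PM stages than the labels do. All 6 came from cells at passage 3 of mice that carry the transgene, and the labels give no treatment. Libraries of wild-type mice were not analysed here, and age, stage and tumor burden cannot be told apart. The cells had been taken from collagenase-digested lungs, kept if they adhered, depleted of CD45+ cells with microbeads and expanded, so that they stand for a cultured adherent population and not for the lung as it was. The study describes its samples as separate mice, which the labels do not state, and p-values measure the spread between these libraries.

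Expression was given as FPKM, that is fragments per kilobase of transcript scaled to the depth of the library. Comparisons of FPKM between genes rest on the transcript lengths used, which are not given. The 6 libraries were estimated at 14800000 to 20800000 fragments, and log2 values of replicates correlated at 0.977 to 0.992. Libraries of different stages correlated at 0.966 to 0.987, a range that overlaps that of replicates. All 12 stromal markers, among them Col1a1, Pdgfrb, Nes and Cd44, reached 1 FPKM in at least 1 library, and their summed FPKM ranged from 2109 to 3254. Of the 10 haematopoietic markers, 8 were highest in both M-LMSC libraries, with sums of 17.6 to 18.2 in A-, 14.1 to 21.1 in PM- and 39.6 to 40.5 FPKM in M-LMSCs, although the defining gene Ptprc (CD45) stayed between 0.0254 and 0.0987 FPKM. Of the 11 epithelial markers, 7 were highest in both M-LMSC libraries, where Epcam stood at 0.326 and 0.473 FPKM against 0 in the other 4. The epithelial sums overlapped between stages (17.5 to 24.3 in A-, 18.8 to 28.0 in PM- and 16.5 to 29.0 FPKM in M-LMSCs), and Krt19 was lowest in M-LMSCs (13.8 and 17.3, 8.09 and 9.28, and 4.92 and 4.49 FPKM in stage order). Krt8 and Krt18 went the other way and were higher in all 4 later libraries than in both A-LMSC libraries. In stage order their means were 1.61, 6.31 and 6.67 FPKM for Krt8 and 2.80, 7.58 and 8.02 FPKM for Krt18. The epithelial sums thus add changes in opposite directions. Of the 7 mesothelial markers, 6 were higher in all 4 later libraries than in both A-LMSC libraries (sums of 107 and 161 at the A stage, 288 and 404 at the PM stage, and 192 and 490 FPKM at the M stage). Endothelial markers summed to 1.58 to 1.66 in A-, 1.74 to 1.77 in PM- and 2.74 to 2.97 FPKM in M-LMSCs, with 3 of 7 highest in both M-LMSC libraries. Most of that sum was Kdr (2.23 and 2.31 FPKM in M-LMSCs), and 6 of the 7 were below 1 FPKM in all libraries. Smooth muscle and pericyte markers summed to 6822 to 6916 in A-, 6241 to 6480 in PM- and 5557 to 5730 FPKM in M-LMSCs, with no overlap between stages. Most of that sum was Acta2 (6311 and 6214, 5568 and 5804, and 5246 and 4986 FPKM in stage order). The order of the sums was therefore largely that of 1 gene, and the list did not share it. Cnn1 was lower in all 4 later libraries than in both A-LMSC libraries, and Notch3 was higher in all 4. Des was highest in the PM-LMSCs (311 and 299 FPKM). In bulk RNA, a change in the number of cells that express a gene and a change in RNA per cell cannot be told apart.

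**Figure D1:**
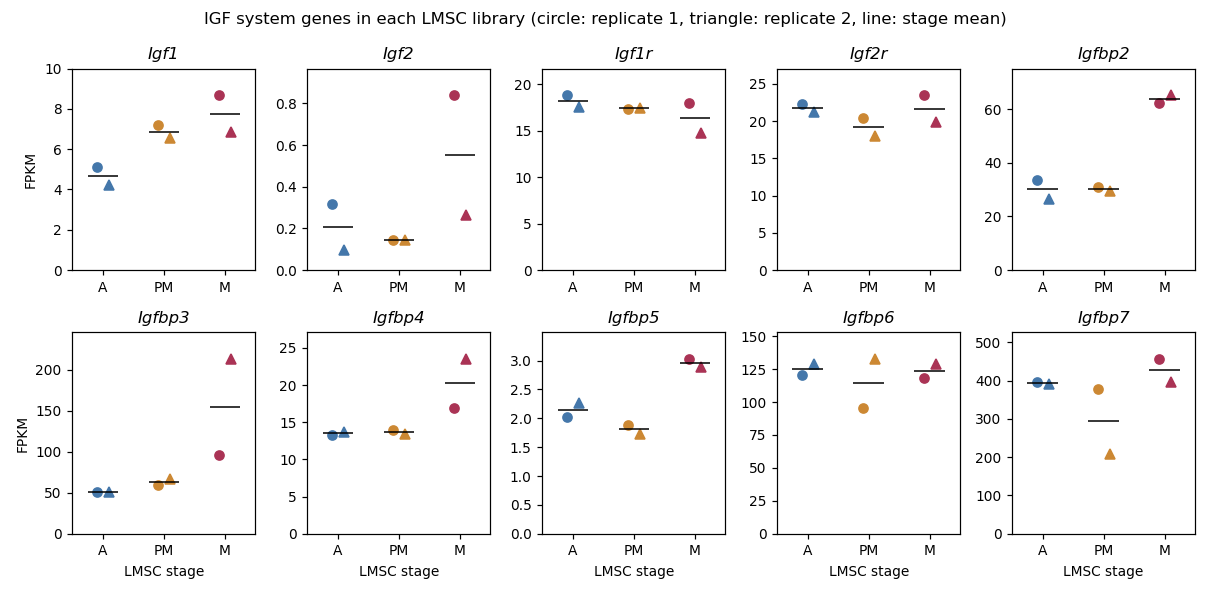
FPKM of the 10 IGF system genes (vertical axes, each from 0) in the A-, PM- and M-LMSC libraries (horizontal axes), with a circle for replicate 1, a triangle for replicate 2 and a line for the stage mean. Igfbp2, Igfbp3, Igfbp4 and Igfbp5 were highest in both M-LMSC libraries, Igfbp6 overlapped between all 3 stages, and Igf1r and Igf2r overlapped between A- and M-LMSCs.

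The LMSCs transcribed far more binding protein RNA than ligand RNA. Igfbp7, which encodes a secreted protein of low affinity for IGFs, was the most abundant member, with a mean of 372 FPKM over the 6 libraries and rank 93 among all genes listed. Igfbp6, whose product prefers IGF-2, followed at 120.98 FPKM, Igfbp3 at 89.6 FPKM and Igfbp2 at 41.4 FPKM. The receptors Igf2r (20.9 FPKM) and Igf1r (17.3 FPKM) and the binding protein gene Igfbp4 (15.8 FPKM) had intermediate levels. Igf1 averaged 6.44 FPKM, Igfbp5 2.31 FPKM and Igf2 0.301 FPKM. In 4 pairs of neighbors in this order the ranges of the 6 libraries overlapped, namely Igfbp6 and Igfbp3, Igfbp3 and Igfbp2, Igf2r and Igf1r, and Igf1r and Igfbp4. Igfbp1, the binding protein gene of liver, and the insulin gene Ins2 were listed at 0 in all 6 libraries.

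The 10 genes lie on 7 mouse chromosomes (GRCm38). Igfbp2 (chr1:72824503-72852474, plus strand) and Igfbp5 (chr1:72857932-72874884, minus strand) are neighbors whose ends are 5457 bases apart, with the genes pointing toward each other. Igfbp3 (chr11:7206086-7213923) and Igfbp4 (chr11:99041244-99054392) share a chromosome but are far from each other, as are Igf1r (chr7:67952827-68233668) and Igf2 (chr7:142650766-142666816). Igf1 lies at chr10:87858265-87937042, Igf2r at chr17:12682406-12769664, Igfbp6 at chr15:102144362-102149511 and Igfbp7 at chr5:77349240-77408041. The exons of Igfbp7 overlap those of Polr2b on the opposite strand by 85 bases, and whether the counting used strand is not given.

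Of the 10 members, 9 reached a mean of 1 FPKM and entered the test with 10279 genes in all. Igf2 did not. The 3 stages were fitted together with limma on log2(FPKM + 1), with Benjamini-Hochberg adjustment over the 10279 genes and a threshold of 0.05 for the adjusted p. All differences below are on that log2 scale, which understates changes of low genes. Because deviations of same-numbered libraries were correlated between stages, the result with replicates paired by number (the replicate block) is given where it changed a call. The labels do not say what same-numbered libraries share, so the pairing rests on these same data. The A-LMSC libraries served for both PM- and M-LMSCs, so these comparisons are not independent of each other.

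In M-LMSCs, the carriers Igfbp2 and Igfbp3 and the ligand Igf1 were called higher than in A-LMSCs when replicates were paired by number. With all 6 libraries and no pairing, no member was called. Without the block, limma called 0 of the 9 tested members, where it called 0.0681% of all genes, and 5 members (Igf1, Igfbp2, Igfbp3, Igfbp4 and Igfbp5) had an unadjusted p under 0.05, against 14.6% of all genes tested. With the replicate block it called 3 members (Igfbp2, Igfbp3 and Igf1), against 3.92% of all genes, and all 3 were higher. The median difference of the 9 members was 0.33, beside 0.027 for all genes tested. Both M-LMSC libraries exceeded the other 4 libraries for 4 of the 10 members (Igfbp2, Igfbp3, Igfbp4 and Igfbp5), and 11.8% of all genes tested had that pattern. For PM-LMSCs against A-LMSCs, 0 members were called with or without the block (0.0389% of all genes without it and 0.292% with it), and 1 member, Igf1, had an unadjusted p under 0.05 without the block, against 6.53% of all genes. For M-LMSCs against PM-LMSCs, 0 members were called without the block (0.0292% of all genes) and 4 had an unadjusted p under 0.05 (8.94% of all genes), namely Igfbp2, Igfbp3, Igfbp4 and Igfbp5. With the block Igfbp2 was called (0.418% of all genes). For both later stages together against A-LMSCs, 0 members were called without the block (0.126% of all genes), 3 had an unadjusted p under 0.05 (Igf1, Igfbp2 and Igfbp3, against 11.2% of all genes), and with the block Igf1 was called (2.05% of all genes). When GC content and length were corrected along with the block, Igfbp2 and Igfbp3 were called for M- against A-LMSCs (3.23% of all genes), Igfbp2 for M- against PM-LMSCs (0.0681%) and for both later stages (1.23%), and 0 members for PM- against A-LMSCs (0.0584%).

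**Figure D2:**
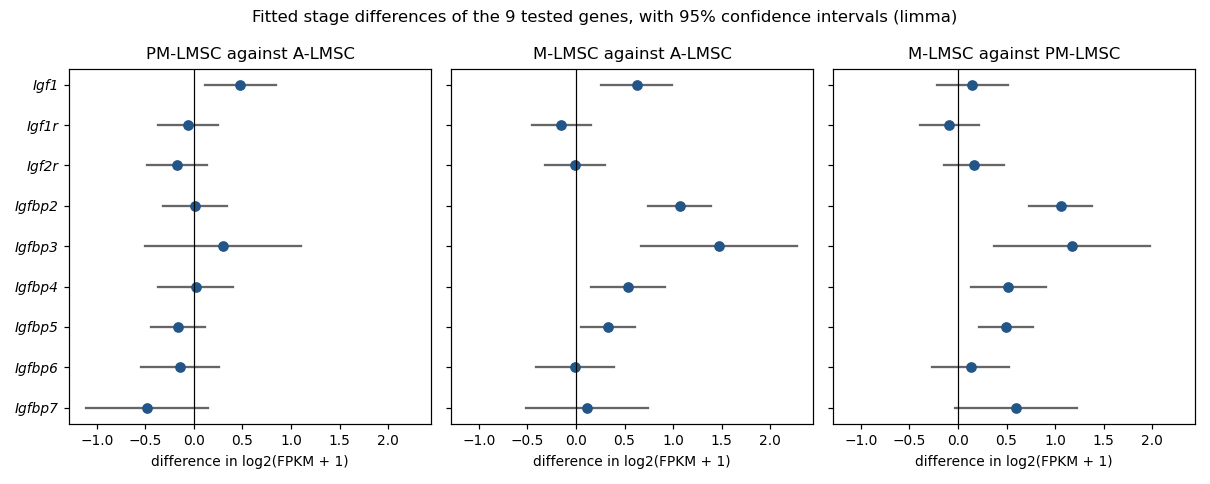
Fitted differences in log2(FPKM + 1) between stages (horizontal axes) for the 9 tested genes (rows), with points for the limma estimates without a replicate block and lines for their unadjusted 95% confidence intervals. Igfbp2 and Igfbp3 lay farthest to the right in both comparisons of M-LMSCs, and Igf1 lay farthest to the right in PM-LMSCs against A-LMSCs.

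Among the ligands, Igf1 encodes the main ligand of IGF1R. Igf1 was at 5.10 and 4.23 FPKM at the A stage, 7.18 and 6.57 at the PM stage, and 8.70 and 6.83 at the M stage. All 4 later libraries exceeded both A-LMSC libraries, while PM- and M-LMSCs overlapped. That pattern was shared by 1 other member, Igfbp3, and by 10.7% of all genes tested. Both later stages together exceeded A-LMSCs by 0.55 ± 0.13 (SE), with an adjusted p of 0.225 without the block and 0.042 with it. For M-LMSCs the difference from A-LMSCs was 0.63 ± 0.15 (adjusted p = 0.151, and 0.030 with the block). For PM-LMSCs it was 0.48 ± 0.15 (adjusted p = 0.571, and 0.131 with the block), and between M- and PM-LMSCs it was 0.15 with a 95% interval of -0.22 to 0.51. When GC content and length were corrected along with the block, Igf1 was no longer called, and its differences were 0.33 for both later stages (adjusted p = 0.157), 0.42 for M-LMSCs (adjusted p = 0.106) and 0.23 for PM-LMSCs (adjusted p = 0.427). Between stages, 6 of the 7 mesothelial markers were likewise higher in all 4 later libraries than in both A-LMSC libraries. Within each stage, however, the mesothelial marker sum was higher in replicate 2, whereas Igf1 was higher in replicate 1. The part of these markers in the result was not tested.

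The genes whose profile over the 6 libraries was closest to that of Igf1, by the root mean square difference of centered log2(FPKM + 1) values, were Gldc (0.0676), Sat1 (0.0688) and Fas (0.0743). Sat1, which encodes a polyamine acetyltransferase, had 18.6 and 17.2 FPKM at the A stage, 25.8 and 22.6 at the PM stage, and 30.7 and 27.1 at the M stage. Like Igf1, these genes were at their highest in replicate 1 of the M-LMSCs. They were picked for their likeness to Igf1 in these libraries, so this adds no separate result.

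Igf2, the fetal ligand expressed from the paternal allele, was low in every library. It was listed at 0.317 and 0.0956 FPKM at the A stage, 0.144 and 0.144 at the PM stage, and 0.841 and 0.266 at the M stage. The A-LMSCs overlapped with both other stages, and both M-LMSC libraries were above both PM-LMSC libraries. Replicate 1 of the M-LMSCs stood above the other 5 libraries. These values rest on 1.67 to 13.9 estimated fragments per kilobase of transcript in a library, and no difference of Igf2 was tested. The annotated gene Gm49394 shares 3596 exon bases with Igf2 on the same strand, so that fragments of Igf2 could have been split between them and its values are uncertain. H19, the neighboring noncoding gene expressed from the maternal allele, was at 0.312 and 0.251 FPKM at the A stage, 0.274 and 0.188 at the PM stage, and 1.35 and 0.403 at the M stage, and thus was likewise highest in replicate 1 of the M-LMSCs.

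The receptors varied little. Igf1r was at 18.9 and 17.6 FPKM at the A stage, 17.3 and 17.5 at the PM stage, and 18.0 and 14.7 at the M stage. Igf2r was at 22.3 and 21.2 FPKM at the A stage, 20.5 and 18.0 at the PM stage, and 23.5 and 19.8 at the M stage. For both genes the M-LMSCs overlapped with the other stages, while both PM-LMSC libraries lay below both A-LMSC libraries by little. For M-LMSCs against A-LMSCs the difference was -0.15 for Igf1r (95% interval -0.46 to 0.16, adjusted p = 0.593) and -0.0093 for Igf2r (95% interval -0.32 to 0.30, adjusted p = 0.977), so that differences of that size stay undecided with 2 libraries a stage. For PM-LMSCs against A-LMSCs the differences were -0.062 for Igf1r and -0.17 for Igf2r, with adjusted p-values of 0.952 and 0.859.

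Promoter sequences are shown for the 4 binding protein genes that were highest in both M-LMSC libraries, because these genes shared that order. Each is the 250 bases before the RefSeq start site (GRCm38.p6), written 5′ to 3′ on the strand of the gene, with capitals for GC boxes (GGGCGG) and TATA boxes (TATAAA) found on either strand. The windows are chr1:72824230-72824479 for Igfbp2 (plus strand), chr11:7213924-7214173 for Igfbp3 (minus), chr11:99040994-99041243 for Igfbp4 (plus) and chr1:72874866-72875115 for Igfbp5 (minus).
Igfbp2: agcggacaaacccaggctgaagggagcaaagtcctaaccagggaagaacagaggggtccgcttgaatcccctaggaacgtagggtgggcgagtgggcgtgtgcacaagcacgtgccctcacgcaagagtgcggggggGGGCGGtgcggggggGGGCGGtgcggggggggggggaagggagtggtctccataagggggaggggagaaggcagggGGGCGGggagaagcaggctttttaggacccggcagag
Igfbp3: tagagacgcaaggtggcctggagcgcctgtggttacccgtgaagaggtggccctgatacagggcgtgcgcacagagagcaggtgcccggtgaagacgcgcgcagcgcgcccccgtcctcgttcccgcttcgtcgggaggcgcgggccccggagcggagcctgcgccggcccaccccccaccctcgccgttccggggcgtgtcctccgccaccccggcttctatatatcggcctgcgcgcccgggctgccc
Igfbp4: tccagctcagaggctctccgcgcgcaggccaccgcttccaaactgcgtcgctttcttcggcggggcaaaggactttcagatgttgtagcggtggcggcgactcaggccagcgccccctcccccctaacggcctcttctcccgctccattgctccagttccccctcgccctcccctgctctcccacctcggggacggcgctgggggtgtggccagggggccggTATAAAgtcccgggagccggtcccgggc
Igfbp5: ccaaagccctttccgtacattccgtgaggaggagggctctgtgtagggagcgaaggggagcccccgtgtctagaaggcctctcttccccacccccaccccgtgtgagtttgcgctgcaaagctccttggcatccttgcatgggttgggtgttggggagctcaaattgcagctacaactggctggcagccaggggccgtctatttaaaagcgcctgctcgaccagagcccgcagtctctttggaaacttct

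The 4 windows differed in these letters. That of Igfbp2 held 3 GC boxes, a number reached by 8.47% of the 32851 RefSeq windows of the same length, and 1 E-box CACGTG, which 6.02% of all windows hold. That of Igfbp4 held 1 TATA box, as did 12.4% of all windows. Neither set of letters was found in the windows of Igfbp3 and Igfbp5, which says only that these letters are not in those 250 bases. Over the 10 members, all of which matched a window, 4 held a GC box (Igfbp2, Igfbp7, Igf1r and Igf2r), against 32.7% of all windows, and 2 held a TATA box (Igfbp4 and Igfbp6). The sequence CCAAT was found in 2 members (Igf1 and Igfbp6), against 33.8% of all windows. For Igf1r, Igf2r and Igfbp6, the bases just after the start site were not found in an annotated transcript of the gene. The windows of these genes are therefore less certain. The GC content of the windows was 67.2% for Igfbp2, 73.2% for Igfbp3, 69.2% for Igfbp4 and 58.8% for Igfbp5, beside a median of 52.4% over all windows.

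Igfbp2, a carrier of both ligands with an integrin-binding motif, was higher in M-LMSCs than in the other stages when replicates were paired. It was at 33.7 and 26.5 FPKM at the A stage, 31.0 and 29.4 at the PM stage, and 62.4 and 65.3 at the M stage. The A and PM libraries overlapped, and both M-LMSC libraries lay above them. The gap between the A-LMSC replicates was larger than that of 93.4% of the genes tested at that stage. The M-LMSC mean of 63.8 ± 2.10 FPKM (SD, n = 2) was 2.12-fold that of A-LMSCs (30.1 ± 5.09, n = 2) and 2.11-fold that of PM-LMSCs (30.2 ± 1.08, n = 2). Against A-LMSCs the difference was 1.07 ± 0.14 (SE, adjusted p = 0.072, and 0.016 with the block), and against PM-LMSCs it was 1.06 ± 0.14 (adjusted p = 0.096, and 0.040 with the block). By size, the difference from A-LMSCs ranked 79 from the top among 10279 genes, and by p-value it ranked 18. Between PM- and A-LMSCs the difference was 0.011, with a 95% interval of -0.31 to 0.34. Both calls of Igfbp2 held when GC content and length were corrected too, with adjusted p-values of 0.022 and 0.023. Without replicate 1 of the M-LMSCs, and with no block, Igfbp2 passed against A-LMSCs (adjusted p = 0.049), where 0.827% of all genes were called. The haematopoietic marker sum was likewise highest in the M-LMSCs, at 39.6 and 40.5 FPKM against 14.1 to 21.1 FPKM in the other 4 libraries. Ptprc was below 0.1 FPKM in all 6 libraries. Of the 5 haematopoietic markers that entered the test, 4 were called higher in M- than in A-LMSCs with the block, beside 3.92% of all genes. Without the block 0 were called. The part of these markers in the result was not tested.

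Igfbp3 encodes the main carrier of IGFs in serum, which is also found at the cell surface and in the nucleus. It was at 50.6 and 51.3 FPKM at the A stage, 58.9 and 67.2 at the PM stage, and 96.0 and 213 at the M stage. No library of a stage overlapped with the next, but the M-LMSC replicates differed 2.22-fold, a gap on the log2 scale larger than that of 99.1% of the genes tested. The M-LMSC mean of 155 ± 83.1 FPKM (SD, n = 2) was 3.04-fold that of A-LMSCs (51.0 ± 0.505, n = 2). On the log2 scale the difference between M- and A-LMSCs was 1.47 ± 0.33 (SE, adjusted p = 0.134, and 0.029 with the block) and ranked 28 by size among 10279 genes. Between M- and PM-LMSCs it was 1.17 ± 0.33 (adjusted p = 0.404, and 0.114 with the block), and between PM- and A-LMSCs it was 0.30 with a 95% interval of -0.50 to 1.10 (adjusted p = 0.901). The size rested on replicate 2 of the M-LMSCs. Without it the difference from A-LMSCs was 0.90 (adjusted p = 0.048), and without replicate 1 it was 2.05 (adjusted p = 0.0033), where 0.876% and 0.827% of all genes were called. In these fits without 1 library, the remaining M-LMSC library was assumed to vary like the other groups. Without replicate 1, Igfbp3 was also called against PM-LMSCs (1.75, adjusted p = 0.0082, beside 0.175% of all genes) and for both later stages together (1.17, adjusted p = 0.0099, beside 0.905%), and without replicate 2 these differences were 0.60 (adjusted p = 0.191) and 0.60 (adjusted p = 0.074). Mesothelial markers had a like order between replicates, with summed values of 192 FPKM in replicate 1 and 490 FPKM in replicate 2 of the M-LMSCs. Between stages the order differed. In replicate 1 of the M-LMSCs the mesothelial sum lay below both PM-LMSC libraries (288 and 404 FPKM), whereas Igfbp3 lay above both. The part of these markers in the result was not tested.

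Igfbp4, a carrier that is a substrate of the protease PAPP-A, was at 13.3 and 13.7 FPKM at the A stage, 13.9 and 13.4 at the PM stage, and 16.9 and 23.6 at the M stage. Both M-LMSC libraries were above the other 4, which lay within a narrow range. The difference between M- and A-LMSCs was 0.53 ± 0.16 (SE) and did not pass the threshold, with an adjusted p of 0.223 without the block and 0.085 with it. Between M- and PM-LMSCs it was 0.52 ± 0.16 (adjusted p = 0.428, and 0.170 with the block). Replicate 2 again stood higher, and without it the difference from A-LMSCs was 0.31.

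Igfbp5, the neighbor of Igfbp2 on chromosome 1 and a carrier that binds extracellular matrix, was near the lower limit of the test. It was at 2.03 and 2.27 FPKM at the A stage, 1.89 and 1.74 at the PM stage, and 3.04 and 2.88 at the M stage. Relative to the A-LMSCs, both PM-LMSC libraries were lower and both libraries of M-LMSCs were higher. The difference between M- and PM-LMSCs was 0.49 ± 0.11 (SE, adjusted p = 0.304, and 0.121 with the block), and between M- and A-LMSCs it was 0.33 ± 0.11 (adjusted p = 0.269, and 0.134 with the block). The mean of M-LMSCs was 1.63-fold that of PM-LMSCs, from an estimated 27.6 to 50.1 fragments per kilobase of transcript in a library.

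**Figure D3:**
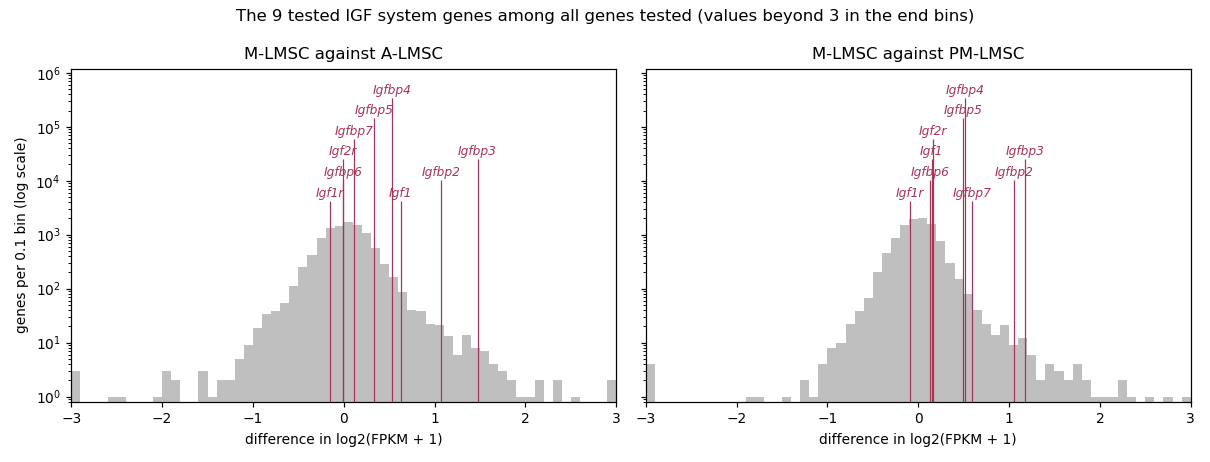
Number of genes (vertical axis, log scale) by difference in log2(FPKM + 1) in bins of 0.1 (horizontal axis) over the 10279 genes tested, for M-LMSCs against A-LMSCs and against PM-LMSCs, with lines at the values of the 9 IGF system genes; the heights of the lines carry no value. Igfbp2 and Igfbp3 lay in the right tail of both distributions, and Igf1r, Igf2r and Igfbp6 lay near their centers.

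Igfbp6 did not differ between stages beyond its spread. It was at 120.8 and 128.7 FPKM at the A stage, 95.8 and 133 at the PM stage, and 119 and 129 at the M stage. All 3 stages overlapped, and M- against A-LMSCs gave -0.012 with a 95% interval of -0.41 to 0.39 (adjusted p = 0.977). Igfbp7 was at 397 and 391 FPKM at the A stage, 378 and 209 at the PM stage, and 458 and 396 at the M stage. Replicate 2 of the PM-LMSCs was the lowest of the 6, and its gap to replicate 1 was larger than that of 99.1% of the genes tested at that stage. The differences of Igfbp7 were -0.49 ± 0.26 (SE) for PM- against A-LMSCs (adjusted p = 0.840) and 0.60 ± 0.26 for M- against PM-LMSCs (adjusted p = 0.580). Without that PM-LMSC library they were -0.060 and 0.17.

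As shares of the summed FPKM of Igfbp2 to Igfbp7, Igfbp7 had the largest share in all 6 libraries. Igfbp7 took 64.3% and 63.8% at the A stage, 65.2% and 46.1% at the PM stage, and 60.7% and 47.7% at the M stage. The share of Igfbp3 was 8.19% and 8.36% at the A stage, 10.2% and 14.8% at the PM stage, and 12.7% and 25.7% at the M stage, and thus was higher in all 4 later libraries. That of Igfbp2 was 5.46% and 4.32% at the A stage, 5.34% and 6.48% at the PM stage, and 8.26% and 7.87% at the M stage, highest in the M-LMSCs. Igfbp6 made up 19.6% and 21.0% at the A stage, 16.5% and 29.3% at the PM stage, and 15.7% and 15.5% at the M stage, with PM-LMSCs on both sides of the A-LMSCs and the M-LMSCs lowest. In an exact two-sided permutation test of the 4 later libraries against the 2 A-LMSC libraries, 15 regroupings were possible and the smallest p that they allow is 0.133. The shares of Igfbp3 and Igfbp4 reached that p of 0.133 by the exact permutation test, and those of the other 4 gave exact p-values of 0.267 to 0.800. The sum of the 6 genes was 618 and 614 FPKM at the A stage, 580 and 454 at the PM stage, and 755 and 831 at the M stage, highest in both M-LMSC libraries.

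**Figure D4:**
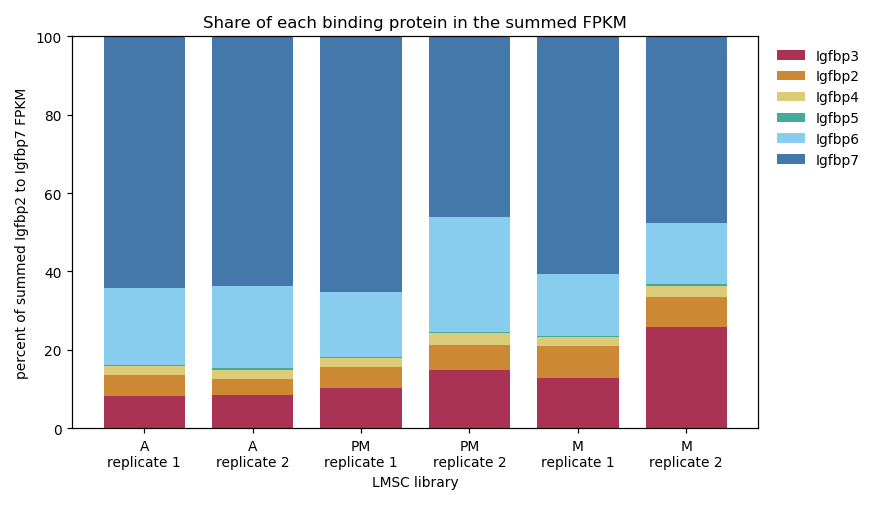
Share of each binding protein gene, in percent of the summed FPKM of Igfbp2 to Igfbp7 (vertical axis, from 0), in each of the 6 libraries (horizontal axis). The Igfbp3 share was 8.19% and 8.36% in the A-LMSC libraries and 25.7% in replicate 2 of the M-LMSCs.

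Of 46 genes on the lists of other ligands and receptors, binding protein proteases, IGF mRNA-binding proteins, imprinted growth genes and receptor signaling, 31 were tested. None was called in any of the 4 comparisons with or without the block. When GC content and length were corrected along with the block, the imprinted gene Peg3 was called lower in M- than in A-LMSCs (-0.55, adjusted p = 0.041). In M- against A-LMSCs 3 had an unadjusted p under 0.05 by limma without the block and 7 with it, where 14.6% and 24.3% of all genes did. In the other comparisons, without the block, 2 (PM against A), 3 (M against PM) and 1 (both later stages) had such a p. The shares over all genes tested were 6.53%, 8.94% and 11.2% in that order. Their median difference was -0.0086 for M- against A-LMSCs, beside 0.027 for all genes tested. The insulin receptor gene Insr was at 2.48 and 2.19 FPKM at the A stage, 2.61 and 2.30 at the PM stage, and 2.98 and 3.00 at the M stage, highest in both M-LMSC libraries, with a difference from A-LMSCs of 0.26 (adjusted p = 0.370). The adaptors of the receptor varied within a narrow range, with Irs1 at 3.39 to 4.69 FPKM and Irs2 at 5.75 to 6.37 FPKM, and the 22 signaling genes had a median difference of 0.053 between M- and A-LMSCs.

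Among the proteases and their inhibitors, Pappa, which encodes PAPP-A, was at 17.2 and 14.2 FPKM at the A stage, 16.7 and 13.1 at the PM stage, and 12.6 and 13.9 at the M stage. Neighboring stages overlapped, while both M-LMSC libraries lay below both A-LMSC libraries. The difference between M- and A-LMSCs was -0.23 (limma without the block, adjusted p = 0.524). Stc2, which encodes the PAPP-A inhibitor stanniocalcin-2, was at 3.73 and 3.95 FPKM at the A stage, 2.505 and 2.585 at the PM stage, and 2.502 and 2.725 at the M stage. All 4 later libraries were below both A-LMSC libraries, and the difference of -0.43 for both later stages together had an adjusted p of 0.206, or 0.062 with the block. Stc1 was at 0.322 to 0.840 FPKM and was not tested.

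The IGF mRNA-binding proteins bind Igf2 and other transcripts, and Igf2bp1 and Igf2bp3 are mainly fetal. Igf2bp1 was at 0.969 and 0.804 FPKM at the A stage, 0.635 and 0.663 at the PM stage, and 0.388 and 0.439 at the M stage. Igf2bp3 was at 1.23 and 0.893 FPKM at the A stage, 0.771 and 0.622 at the PM stage, and 0.413 and 0.380 at the M stage. For both genes the libraries of each stage lay below those of the stage before, but their means were below 1 FPKM and they were not tested. Igf2bp2, the adult member, was at 3.65 to 6.25 FPKM with overlap of all 3 stages.

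**Figure D5:**
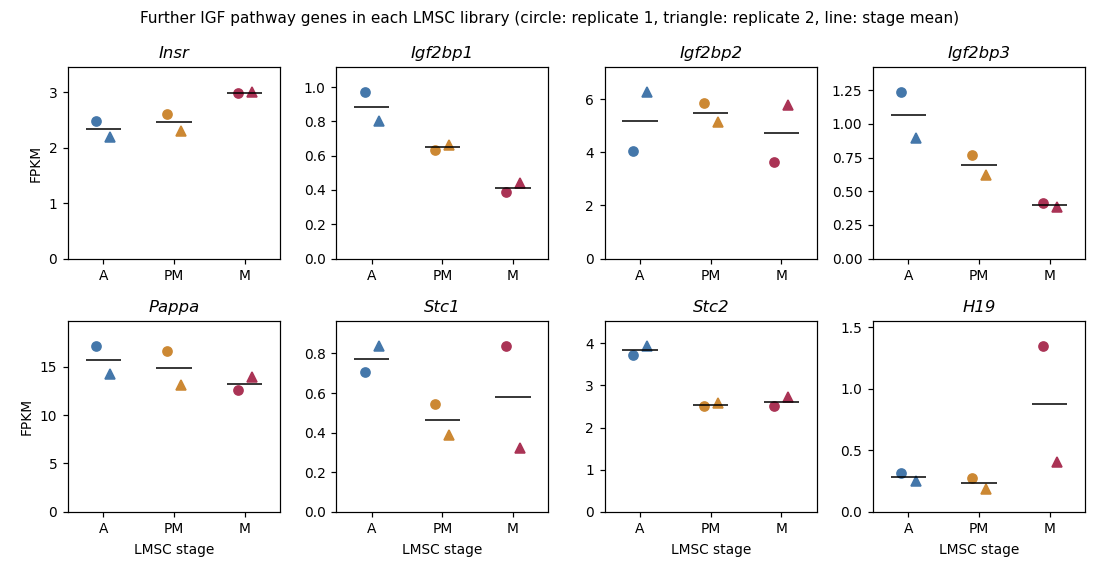
FPKM of 8 further genes of the pathway (vertical axes, each from 0) in the A-, PM- and M-LMSC libraries (horizontal axes), with a circle for replicate 1, a triangle for replicate 2 and a line for the stage mean. Igf2bp1 and Igf2bp3 were lowest in both M-LMSC libraries, Stc2 was lower in all 4 later libraries than in A-LMSCs, and H19 was highest in replicate 1 of the M-LMSCs at 1.35 FPKM.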

How the data were processed

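RNA-seq values of 6 LMSC libraries were analysed. The table that the authors deposited gives FPKM values of 34745 Ensembl genes in 1 column per library, and all value columns were used (0 left out). Per the labels, processing involved TopHat2 2.0.9 and mm10. The counter, annotation and use of strand are not given in the sources used here. Library depth was estimated from the spacing of low FPKM values of genes with 1 transcript (between 95.9% and 96.7% of them lay within 0.05 of a whole fragment), and the depth and number of libraries limit the precision of low genes. Counts of the members were not recovered, because the lengths behind their FPKM are unknown. A gene name was repeated in 57 cases and the first identifier was used. Positions, for 34267 of the identifiers, are from GENCODE M21 (GRCm38), and promoter sequences are from RefSeq (GRCm38.p6). Copies were searched for with blastn 2.17.0 at 95% identity over 200 bases.

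Genes averaging 1 FPKM or more were fitted as log2(FPKM + 1) in R 4.3.3 with limma 3.58.1 (eBayes with a trend), with 1 mean per stage and Benjamini-Hochberg adjustment. Tables, shares and exact permutation tests were made in Python 3.11.15 with scipy 1.17.1. The fit was tested on simulated data. Replicate numbers come from the labels, which do not say what same-numbered libraries share. Deviations from the stage mean of same-numbered libraries correlated at 0.238 (A with PM), 0.307 (A with M) and 0.491 (PM with M), all over the limit of 0.1, so the numbers were taken to pair the libraries. With 2 libraries a stage such correlations can also arise without pairing, so they do not show that the libraries were paired. Alternatives were a pseudocount of 0.1, all genes above 0, quantile normalization, median centering, only the stages compared, the replicate block, the block with a lowess correction (span 0.3) for GC content and length, a log2 difference of at least 1, and each library left out in turn.

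The members, gene lists and tests were chosen with earlier results of these data known. The genes named are all 10 members, pathway genes called with or without the block, Insr, H19, Pappa, Stc1, Stc2, Irs1, Irs2 and the 3 Igf2bp genes whatever their values, and the 3 genes most like each tested ligand. Igfbp1, Ins2, Gm49394 and the markers were named after their values were seen.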

Additional observations from a re-analysis of the deposited data

Results flagged for a closer look

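Igfbp2 was marked because its stage differences themselves differed. M-LMSCs exceeded A-LMSCs by 1.07 on the log2(FPKM + 1) scale while PM-LMSCs differed from A-LMSCs by 0.011, and the direct difference of M- from PM-LMSCs, 1.06, passed the threshold with the replicate block (limma, adjusted p = 0.040) and not without it (0.096). It was higher in 2 of 2 M-LMSC libraries than in each PM-LMSC library.

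Igfbp5 was marked because, relative to the A-LMSCs, both PM-LMSC libraries were lower and both libraries of M-LMSCs were higher. The difference of M- from PM-LMSCs was 0.49 and did not pass the threshold (limma, adjusted p = 0.304, and 0.121 with the replicate block).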

How the results depend on the processing

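Of 459 differences of members recomputed under alternatives, 424 kept their direction and side of the threshold, 14 kept their direction and passed it and 21, of 10 results, changed sign. The fit of all 6 libraries without the block called no member, so no alternative could lose a call of that fit. Igf2, with the fewest fragments of the members (1.67 to 13.9 per kilobase of transcript), was below the limit on low values. With the replicate block the members called were 3 for M- against A-LMSCs, 1 for M- against PM-LMSCs and 1 for both later stages, and the block changed no other call. With GC content and length corrected as well, they were 2 (Igfbp2 and Igfbp3), 1 (Igfbp2) and 1 (Igfbp2), so that both calls of Igf1 were lost, and 1 further pathway gene, Peg3, was called lower in M- than in A-LMSCs (-0.55, adjusted p = 0.041). With each library left out in turn, calls ranged from 0 to 2 for M- against A-LMSCs, from 0 to 1 for M- against PM-LMSCs and from 0 to 1 for both later stages. The members called were Igfbp2 and Igfbp3 without M-LMSC replicate 1 and Igfbp3 without M-LMSC replicate 2. Fits of only the stages compared gave no value for both later stages together, which needs all 6 libraries. With all genes above 0 in at least 1 library, Igf2 was tested too, and 0 members were called.

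Sign changes were among small differences that never passed the threshold. For PM- against A-LMSCs they were Igfbp2 under quantile normalization (-0.017), median centering (-0.020) and the block with the GC and length correction (-0.011), and Igfbp4 under median centering (-0.014). For M- against A-LMSCs they were Igf2r (0.0016) and Igfbp6 (0.0077) under quantile normalization and Igfbp6 under the block with the correction (0.15). With libraries left out, PM- against A-LMSCs ranged from -0.16 to 0.18 for Igfbp2, from -0.0050 to 0.040 for Igfbp4 and from -0.38 to 0.092 for Igfbp6. M- against A-LMSCs ranged from -0.13 to 0.11 for Igf2r and from -0.072 to 0.048 for Igfbp6. M- against PM-LMSCs ranged from -0.0069 to 0.30 for Igf1, from -0.23 to 0.049 for Igf1r and from -0.10 to 0.36 for Igfbp6. Both later stages against A-LMSCs ranged from -0.19 to 0.040 for Igfbp6 and from -0.40 to 0.025 for Igfbp7. The cause of these was not tested, and the adjusted p of Igfbp2 for M- against A-LMSCs ranged from 0.016 to 0.425 over its alternatives.

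The difference of M- from A-LMSCs in share of binding protein RNA, left without Igfbp7 in the sum, was 4.41 percentage points for Igfbp2 (3.17 with it), 17.7 for Igfbp3 (10.9), -0.52 for Igfbp4 (0.35), -0.13 for Igfbp5 (0.026) and -21.5 for Igfbp6 (-4.64), because the shares then add up over 5 genes. With libraries left out, that of Igfbp3 ranged from 4.45 to 17.4 percentage points, the lowest without M-LMSC replicate 2.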
